A study of Mus musculus with 14 samples.

Results

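The clustered Hox genes of the mouse were measured in multipotent progenitors (MPP) of young and old bone marrow. Members were all genes whose symbol is Hox followed by a cluster letter from a to d and a number, with a probe set that carries that symbol alone. There were 36 such genes among the 19155 genes tested. They comprised 10 Hoxa, 9 Hoxb, 9 Hoxc and 8 Hoxd genes. Hoxb8 and Hoxd3 had no probe set of their own, and 1 probe set shared by Hoxb7 and Hoxb8 lay between 0.0773 and 0.331 over the arrays and was not used.

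Each of the 14 Affymetrix Mouse Gene ST 1.0 arrays carried amplified RNA from 20000 double-sorted bone marrow cells of wild-type C57BL/6 mice, with no transgene or treatment. Young mice were 8 to 10 weeks of age and old mice 24 months. Myeloid-biased MPP3 were sorted as Lin-, cKit+, Sca-1+, Flk2-, CD48+ and CD150- cells (3 young and 3 old arrays), and lymphoid-biased MPP4 as Lin-, cKit+, Sca-1+ and Flk2+ cells (5 young and 3 old arrays). The young arrays had also been deposited with an earlier series, so the series an array was first made for and age cannot be told apart.

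Hox genes encode homeodomain transcription factors that lie in 4 clusters, in an order that follows where and when they are used along the body axis of the embryo. Low-numbered genes sit at the 3′ end of a cluster and are used toward the head, and high-numbered genes sit at the 5′ end and are used toward the tail. In blood, genes of the Hoxa and Hoxb clusters are known to be used in stem and progenitor cells and to be switched off as cells mature. Their proteins bind DNA with TALE-class partners (Meis and Pbx), and their transcription is maintained by MLL-type and repressed by Polycomb complexes.

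A normalized value here is a rank score: on each array, the fraction of probe sets ranking at or above a given one is taken, and the value is the negative of its natural logarithm. A difference is therefore a shift in rank and not a fold. Probe sets differ in how well they bind, so levels were not set against each other between genes. Each gene was instead set against the receptor limit of its array, the 95th percentile of 1160 olfactory and vomeronasal receptor genes, which blood cells are not known to use. The limit lay between 0.490 and 0.727, and array medians lay between 0.662 and 0.675. A gene was called above the limit in a group if it exceeded the limit on every array of that group. On every array but old MPP3 replicate 3 the limit lay below the array median, so most probe sets exceeded it there.

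The arrays differed in ways that the groups do not explain. The dimmest 33.3% of probe sets split them into 2 sets. Set 1 held replicate 1 of young MPP3, replicates 1 and 2 of young MPP4 and every array from old mice, and set 2 held the 5 remaining young arrays. The labels gave no sex, yet 4 young arrays had an Xist value above 1, and in 2 of these (young MPP4 replicates 4 and 5) the Y-linked gene Eif2s3y was present too. No array from old mice had an Xist value above 1, so Xist and age partly coincide. Old MPP3 replicate 3 and young MPP3 replicate 1 had the highest receptor limits, at 0.727 and 0.650. The sort was visible in its own marker, since Flt3, which encodes Flk2, was higher in MPP4 by 1.30 ± 0.141 (SE) over both ages (limma, adjusted p = 0.00199).

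Values above the receptor limit were found in the middle of the Hoxa cluster and along much of the Hoxb cluster, and were nearly lacking in the Hoxc and Hoxd clusters. In total 12 of the 36 genes exceeded the limit in at least 1 group, and 8 of them in all 4 groups. The share of all genes that meet the same rule was not counted, so these counts have no background beside them. Most probe sets exceeded the limit on every array but old MPP3 replicate 3. The counts therefore do not show that Hox genes pass it more often than other genes. Of the Hoxa cluster (chr6:52162417-52260880, GRCm38.p6), the contiguous run of measured genes Hoxa4, Hoxa5, Hoxa6, Hoxa7, Hoxa9 and Hoxa10 was above the limit in at least 1 group, Hoxa6 in the MPP4 groups alone. Hoxa2, Hoxa3, Hoxa11 and Hoxa13 at its flanks were not. Of the Hoxb cluster (chr11:96194316-96368254), Hoxb1, Hoxb3, Hoxb4, Hoxb7 and Hoxb9 were above it and Hoxb2, Hoxb5, Hoxb6 and Hoxb13 were not. None of the 9 genes of the Hoxc cluster (chr15:102921131-103036856) was above the limit in any group, and of the Hoxd cluster (chr2:74668225-74765142) only Hoxd10 was, in both old groups. With the 99th percentile of the receptor genes as the limit, 6 genes were above it in at least 1 group and 1 in all 4. With the array median as the limit, the counts were 9 and 7.

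**Figure D1:**
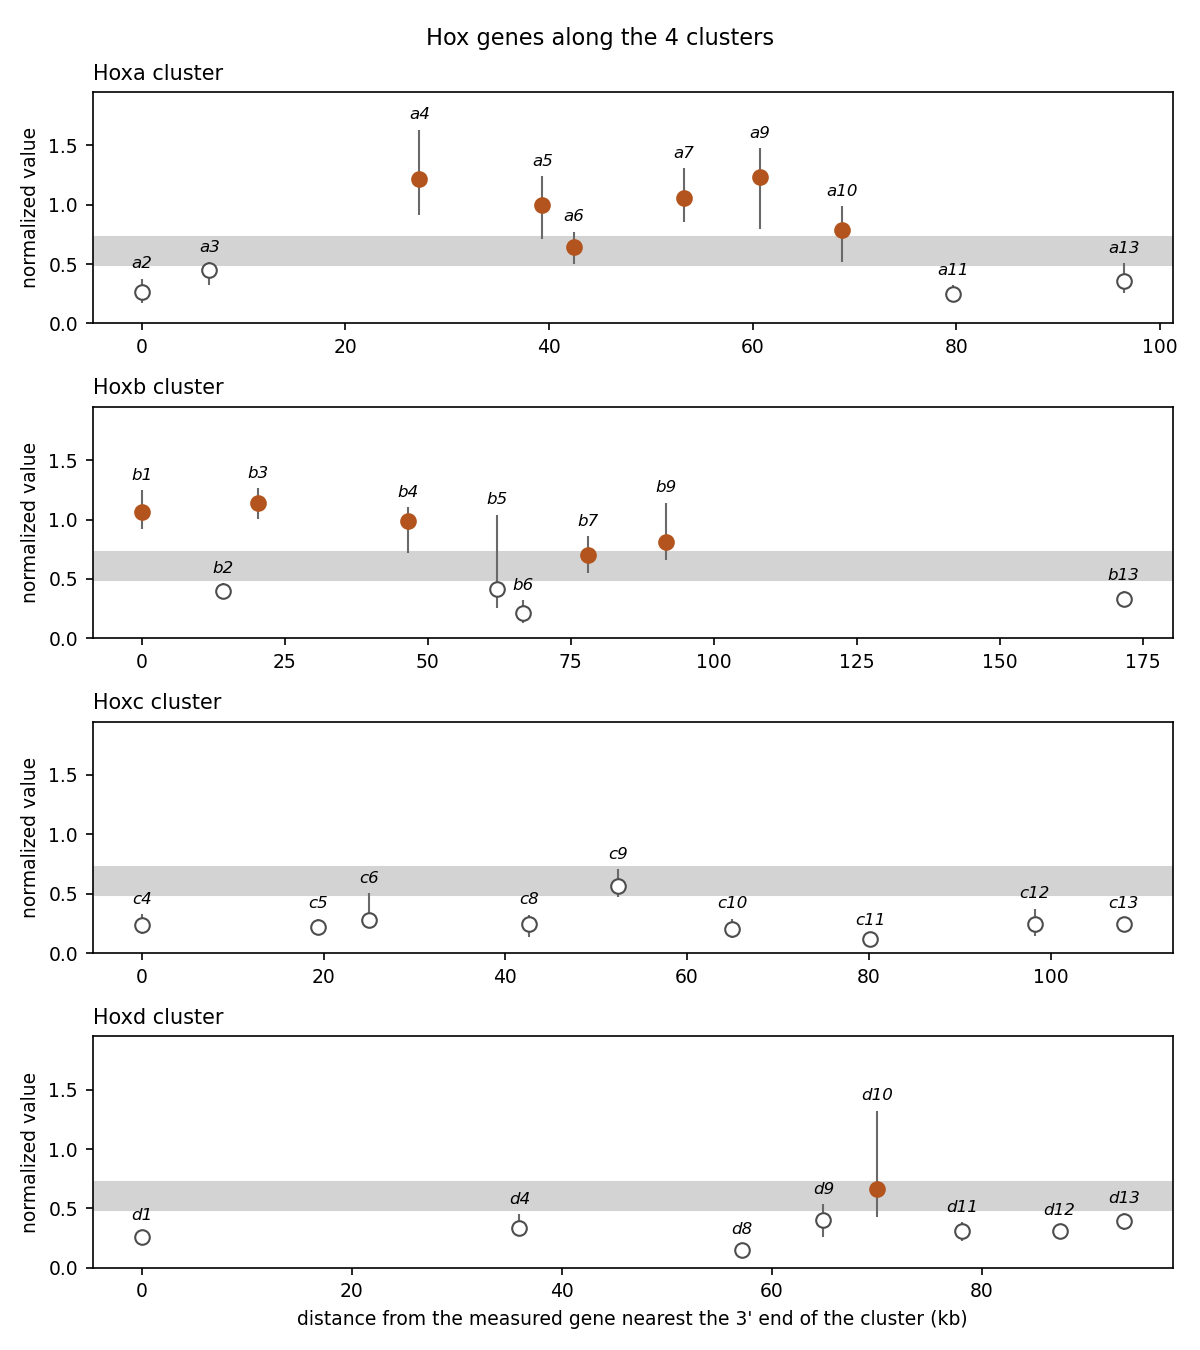
Mean normalized value of each Hox gene over the 14 arrays (points) with the lowest and highest array (lines), against distance in kb from the measured gene nearest the 3′ end of its cluster. Filled points mark the 12 genes above the receptor limit in at least 1 group, the grey band spans that limit over the arrays (0.490 to 0.727), and values are not comparable between genes.

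A value above the limit does not show that a gene is used. Hoxb1, known for giving identity to a segment of the embryonic hindbrain, exceeded the limit on all 14 arrays, with values between 0.917 and 1.25. Hoxb5, known as a marker of long-term stem cells, a population not among the arrays used here, was between 0.254 and 0.466 on 12 arrays. It reached 1.04 and 0.664 on young MPP4 replicates 4 and 5, the arrays with both Xist and Eif2s3y. The part of that signal in the Hoxb5 values was not tested.

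The 24 genes not above the limit in any group were Hoxa2, Hoxa3, Hoxa11 and Hoxa13, Hoxb2, Hoxb5, Hoxb6 and Hoxb13, Hoxc4, Hoxc5, Hoxc6, Hoxc8, Hoxc9, Hoxc10, Hoxc11, Hoxc12 and Hoxc13, and Hoxd1, Hoxd4, Hoxd8, Hoxd9, Hoxd11, Hoxd12 and Hoxd13. Single arrays ranged from 0.173 to 0.517 in the Hoxa genes among them, from 0.125 to 1.04 in the Hoxb genes, from 0.0820 to 0.709 in the Hoxc genes and from 0.0944 to 0.534 in the Hoxd genes. Nearest to the limit was Hoxc9, which exceeded it on 8 of 14 arrays. Hoxb5 exceeded it on 2 arrays, Hoxa3 and Hoxa13 on 1 each, and the other 20 genes on 0 arrays.

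**Figure D2:**
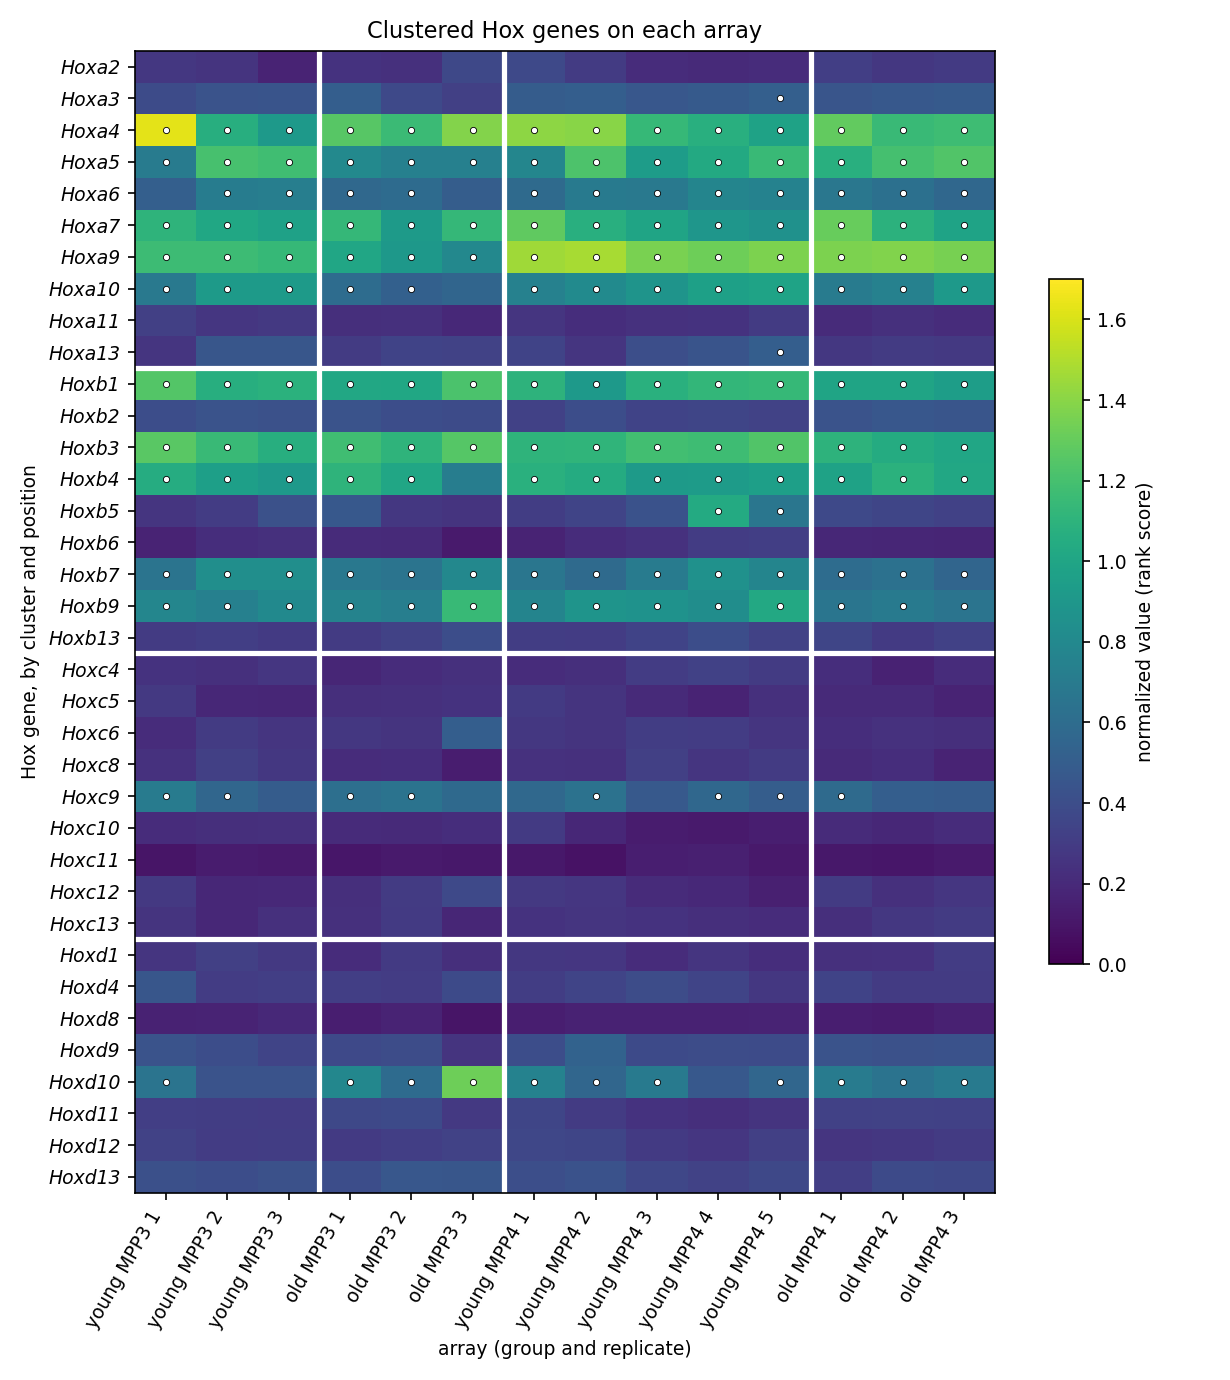
Normalized value (colour, rank score) of the 36 Hox genes (rows, by cluster and position, with white lines between clusters) on the 14 arrays (columns, with white lines between groups). A white dot marks a value above the receptor limit of that array, and dots fill the rows of Hoxa4, Hoxa5, Hoxa7, Hoxa9, Hoxb1, Hoxb3, Hoxb7 and Hoxb9.

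The 3 genes with the widest gaps between populations in old mice, Hoxa5, Hoxa9 and Hoxa10, lie in the run of the Hoxa cluster above the receptor limit. Hoxa6 and Hoxa7 lie between Hoxa5 and Hoxa9, and the 3 genes are transcribed from the minus strand. The 250 bases before each of their RefSeq start sites (GRCm38.p6) are shown because of those gaps, with Hoxa10 at both of its listed starts. Capitals mark the TATA box letters TATAAA, the CCAAT box or the GC box letters GGGCGG on either strand.
Hoxa5, chr6:52204588-52204837: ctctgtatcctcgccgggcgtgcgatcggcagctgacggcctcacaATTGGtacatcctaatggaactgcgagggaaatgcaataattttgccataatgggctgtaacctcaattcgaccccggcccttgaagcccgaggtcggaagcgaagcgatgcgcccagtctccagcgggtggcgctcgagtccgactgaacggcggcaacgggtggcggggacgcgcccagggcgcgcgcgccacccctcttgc
Hoxa9, chr6:52227371-52227620: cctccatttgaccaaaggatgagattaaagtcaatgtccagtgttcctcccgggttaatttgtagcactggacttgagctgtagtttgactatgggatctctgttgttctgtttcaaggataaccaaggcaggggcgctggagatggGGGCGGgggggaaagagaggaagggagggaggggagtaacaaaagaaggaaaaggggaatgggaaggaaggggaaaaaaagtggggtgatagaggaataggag
Hoxa10, chr6:52234940-52235189: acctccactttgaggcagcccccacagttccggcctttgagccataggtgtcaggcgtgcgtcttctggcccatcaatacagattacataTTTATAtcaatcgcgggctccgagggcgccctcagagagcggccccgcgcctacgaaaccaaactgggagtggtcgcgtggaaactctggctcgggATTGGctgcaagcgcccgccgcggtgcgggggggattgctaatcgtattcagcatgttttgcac
Hoxa10, chr6:52240855-52241104: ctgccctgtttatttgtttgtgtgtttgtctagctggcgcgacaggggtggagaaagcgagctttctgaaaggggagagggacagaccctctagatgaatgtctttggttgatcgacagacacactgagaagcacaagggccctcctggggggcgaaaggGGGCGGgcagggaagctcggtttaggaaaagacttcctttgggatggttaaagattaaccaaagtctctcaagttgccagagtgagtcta

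The windows differ in base composition. The Hoxa5 window held 28 CpG dinucleotides and 63.6% G and C, and the Hoxa9 window 3 CpG and 49.6%. Both Hoxa10 windows lay between these, with 20 and 7 CpG. Over 32544 promoter windows of the same length the medians were 6 CpG and 52.4%, and over the 22 windows of the 20 Hox genes that had one they were 13 CpG and 59.2%. Of all windows, 12.3% held the TATA box, 33.8% the CCAAT box and 33.0% the GC box on either strand. The letters TGACAG (found in Meis sites), TTTATG (Cdx sites) and TGATNNAT (paired Pbx and Hox sites) were in 15.8%, 10.8% and 7.66% of all windows and in none of the 4 shown. A match or its lack is a property of the letters and says nothing of binding.

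Hoxa9, which with Meis1 maintains immature progenitors and drives acute myeloid leukemia when overexpressed, was the Hox gene that separated the populations. It was 1.17, 1.17 and 1.14 in young MPP3, 1.01, 0.906 and 0.793 in old MPP3, 1.46, 1.47, 1.35, 1.32 and 1.36 in young MPP4, and 1.37, 1.38 and 1.35 in old MPP4. Every MPP4 array lay above every MPP3 array, with a gap of 0.154 in young mice and 0.345 in old mice. Group means were 1.16 ± 0.0154 (SD, n = 3), 0.902 ± 0.107 (n = 3), 1.39 ± 0.0670 (n = 5) and 1.37 ± 0.0120 (n = 3) in the same order.

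**Figure D3:**
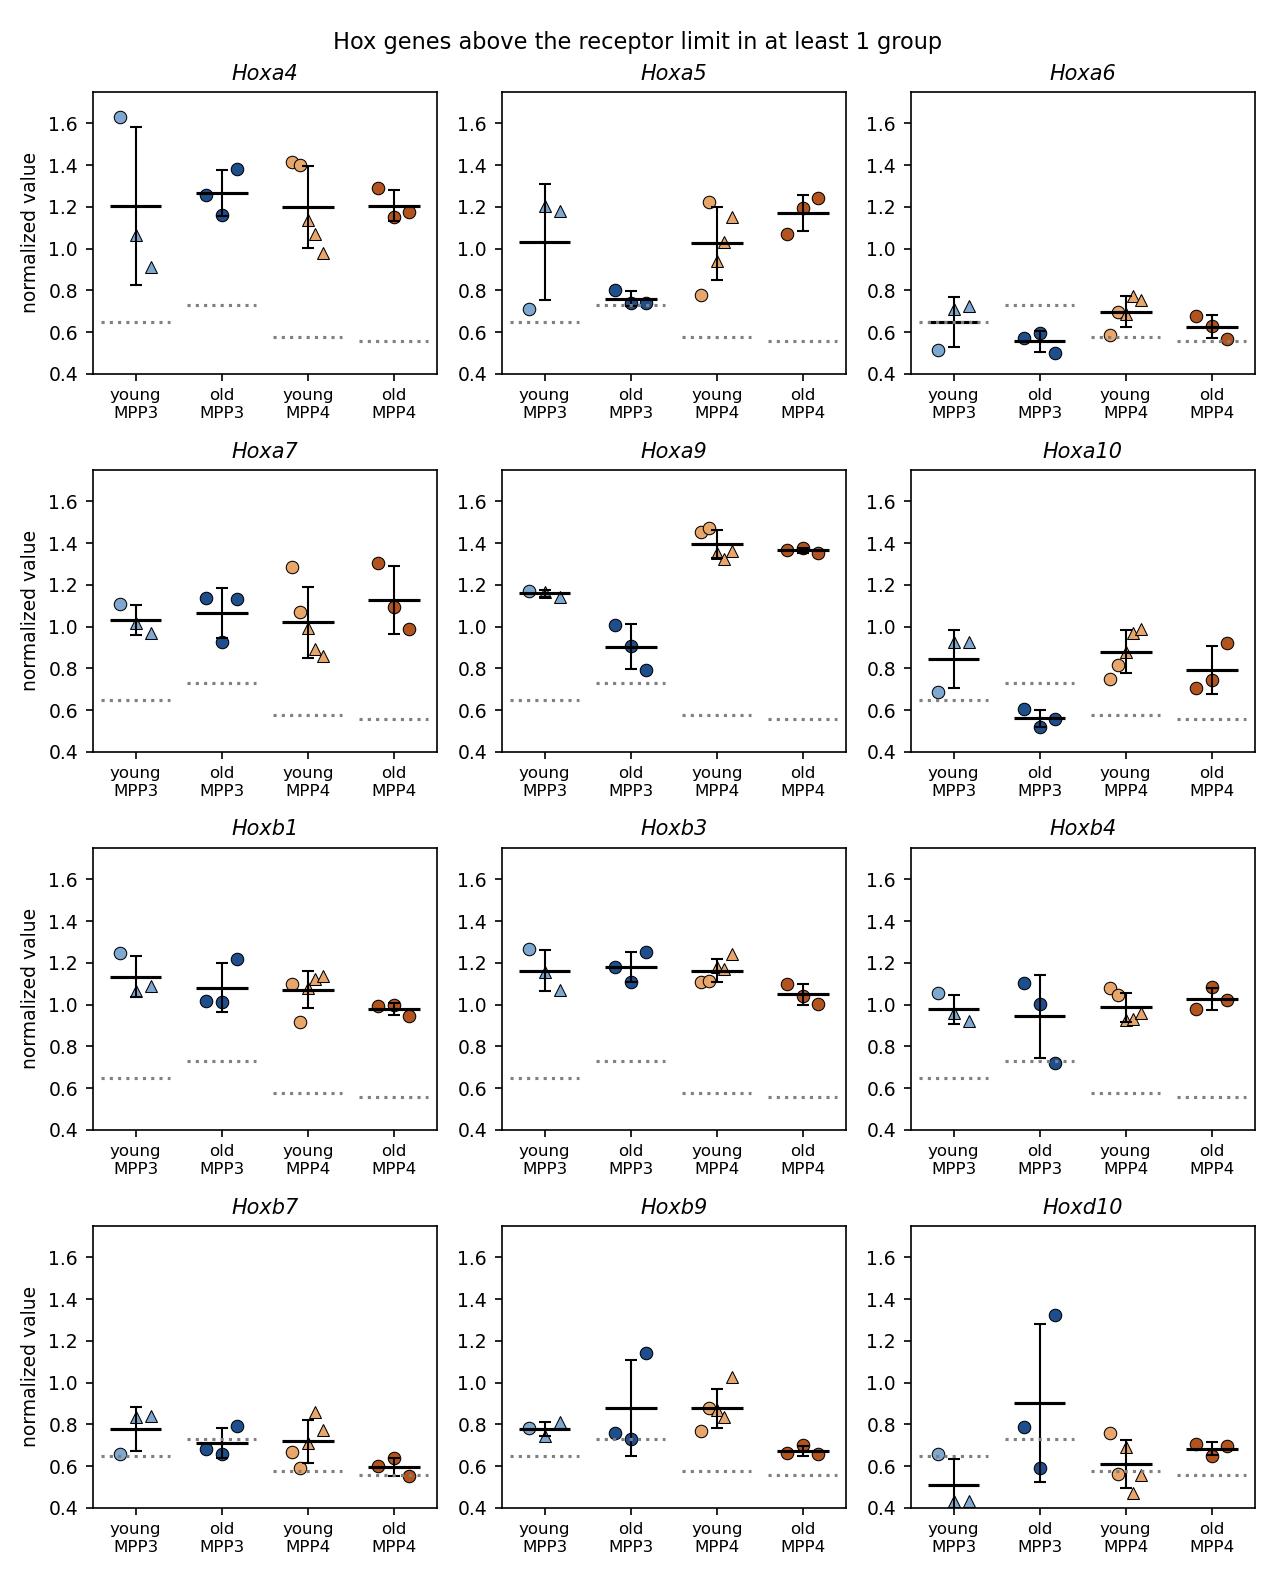
Normalized value of the 12 Hox genes above the receptor limit in at least 1 group, by group, with 1 point per array, the group mean (bar) and SD (whisker). Circles are arrays of set 1 and triangles of set 2, and the dotted line is the highest receptor limit among the arrays of the group. Hoxa9 is highest in both MPP4 groups and lowest in old MPP3.

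Averaged over both ages, Hoxa9 was higher in MPP4 than in MPP3 by 0.349 ± 0.0346 (SE, 95% interval 0.273 to 0.425, limma adjusted p = 0.00109). It ranked 9 of 19155 genes by p and was the 1 Hox gene of 36 past the threshold, beside 188 of all genes (0.981%), of which 121 (0.632%) were higher in MPP4. The count over all genes ranged from 79, without old MPP4 replicate 1, to 327, without young MPP4 replicate 1, when an array was left out. At an unadjusted p under 0.05 there were 5 Hox genes (Hoxa3, Hoxa5, Hoxa9 and Hoxa10, higher in MPP4, and Hoxd13), beside 13.3% of all genes. The median difference of the 36 genes was -0.0111 and that of all genes -0.00213. By cluster, 7 of 10 Hoxa genes had a higher mean in MPP4, against 4 of 9 Hoxb, 3 of 9 Hoxc and 1 of 8 Hoxd genes.

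Hoxa9 remained past the threshold with normal scores, another variance model, array weights, a replicate block, array set as a term, dim genes left out or all probe sets kept, without the arrays with Xist, and when any single array was left out, with differences between 0.322 and 0.375 in the latter. It was not past it within array set 1 alone, which has 9 arrays. There the difference was 0.380 ± 0.0474 with adjusted p = 0.0981, and 0 of all genes passed.

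Most myeloid progenitor markers differed between the populations in the direction opposite to Hoxa9, with lower means in MPP4 for 11 of 13. Of lymphoid priming markers 6 of 9 had a higher mean in MPP4, with 2 past the threshold as higher and 1 as lower. By age, 4 of 9 had a higher mean in MPP4 in young mice and 7 of 9 in old mice. That list holds Flt3, which encodes the Flk2 used to sort MPP4. Of stem cell markers 6 of 12 had a higher mean in MPP4. The mean of 13 measured myeloid progenitor markers (of 14 listed) was between 1.28 and 1.76 in young MPP3, 1.58 and 2.56 in old MPP3, 0.951 and 1.13 in young MPP4, and 1.09 and 1.17 in old MPP4. Between 9 and 13 of the 13 were above the receptor limit on every array, and 6 of 13 were past the threshold as lower in MPP4, among them Elane by -1.60 ± 0.207 and Mpo by -1.64 ± 0.274 (adjusted p = 0.00547 and 0.0189). Their part in the Hoxa9 result was not tested, and in sorted bulk RNA fewer cells that use a gene and less RNA per cell cannot be told apart.

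The other marker lists bear on the makeup of the sorted cells. Lymphoid priming markers (9 of 12 measured) averaged 1.39 to 1.52 in young MPP3, 1.04 to 1.46 in old MPP3, 1.35 to 1.77 in young MPP4 and 1.58 to 1.83 in old MPP4. Mature neutrophil and monocyte markers (12 of 12) averaged 0.610 to 0.789, 0.861 to 1.21, 0.475 to 0.598 and 0.468 to 0.593 in the same order, so old MPP3 stood above all other arrays. Stem cell markers (12 of 14) averaged 0.864 to 0.952, 0.645 to 0.859, 0.875 to 1.01 and 0.836 to 0.972. Erythroid and megakaryocyte markers (9 of 12) averaged 1.10 to 1.41 in young MPP3, 0.881 to 1.21 in old MPP3 and 0.850 to 1.06 in the MPP4 groups. Mature B, T and NK cell markers (11 of 12) lay between 0.502 and 0.755 on all arrays, and stromal and endothelial markers (12 of 12) between 0.475 and 0.617. The part of these lists in any Hox result was not tested.

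Within each age the same comparison rested on fewer arrays. In young mice Hoxa9 was higher in MPP4 by 0.235 ± 0.0399 (SE, limma adjusted p = 0.0992), which did not pass, while 25 of all genes (0.131%) did. That count ranged from 8, without young MPP3 replicate 2 or young MPP4 replicate 5, to 108, without young MPP3 replicate 1. Arrays of the populations did not overlap in 2 of 36 Hox genes, beside 7.47% of all genes: Hoxa9 and Hoxa3, the latter by 0.0213 and below the receptor limit in every group. At an unadjusted p under 0.05 there were 3 Hox genes (Hoxa9, Hoxa3 and, lower in MPP4, Hoxb2), beside 11% of all genes, and 0 by a SAM-type statistic, which called 208 of all genes. With array set as a term, Hoxa9 was higher by 0.229 with adjusted p = 0.0259, and 271 of all genes passed.

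In old mice, Hoxa9 was higher in MPP4 by 0.463 ± 0.0571 and Hoxa5 by 0.409 ± 0.0508 (limma, adjusted p = 0.203 for both), and 0 of all genes passed. A SAM-type statistic put both past its threshold (false discovery rate 0.0164 for each) as 2 of the 142 it called among all genes. In 1 fit of all 4 groups Hoxa9 passed (adjusted p = 0.00848), as 1 of 27 of all genes. Arrays did not overlap in 12 of 36 Hox genes, beside 16.6% of all genes, with 5 higher (9.03% of all genes) and 7 lower (7.6%) in MPP4. Hoxa9, Hoxa5 and Hoxa10 were separated by gaps of 0.345, 0.269 and 0.104, and the other 9 (Hoxb1, Hoxb2, Hoxb3, Hoxb7, Hoxb9, Hoxc5, Hoxc6, Hoxd9 and Hoxd13) by 0.0306 or less. At an unadjusted p under 0.05 there were 5 Hox genes, beside 9.83% of all genes.

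Hoxa5, which affects the balance of erythroid and myeloid output in human progenitors, was 0.710, 1.21 and 1.18 in young MPP3, 0.802, 0.739 and 0.740 in old MPP3, 0.780, 1.22, 0.940, 1.03 and 1.15 in young MPP4, and 1.07, 1.20 and 1.24 in old MPP4. The 3 old MPP3 arrays were low, and so were young MPP3 replicate 1 and young MPP4 replicate 1. The ages overlapped in MPP3 through young replicate 1, and in MPP4 through young replicates 2 and 5. Over both ages the difference between MPP4 and MPP3 was 0.202 ± 0.0890 (adjusted p = 0.362). It was 0.121 without young MPP3 replicate 1 and 0.350 within array set 1 alone.

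Hoxa10, known for roles in myeloid and megakaryocyte progenitors, was 0.684, 0.927 and 0.925 in young MPP3, 0.604, 0.520 and 0.557 in old MPP3, 0.747, 0.815, 0.879, 0.969 and 0.988 in young MPP4, and 0.708, 0.746 and 0.922 in old MPP4. The old MPP3 arrays were the lowest of all 14, and Hoxa10 was above the receptor limit in the other 3 groups but on only 2 of the 3 old MPP3 arrays. Over both ages the difference between MPP4 and MPP3 was 0.133 ± 0.0548 (adjusted p = 0.323), and 0.0763 without the arrays with Xist.

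**Figure D4:**
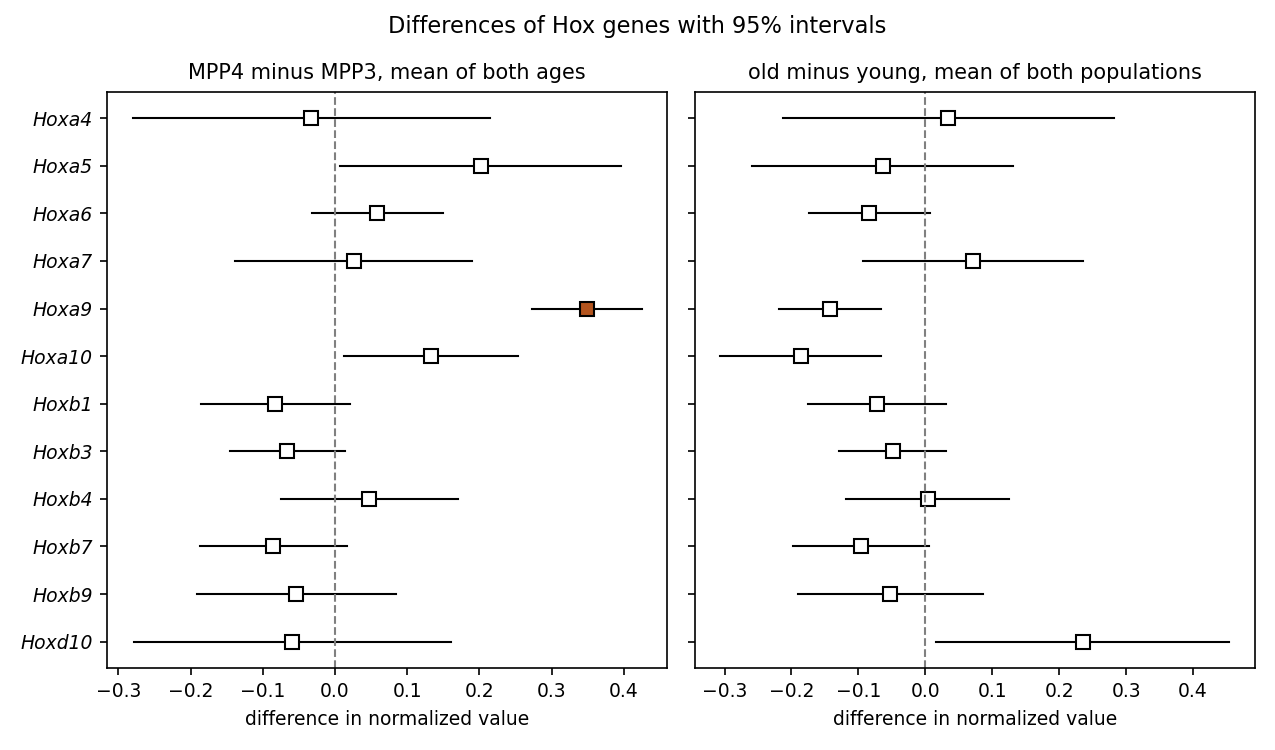
Difference in normalized value with its 95% interval for the 12 Hox genes above the receptor limit in at least 1 group, for MPP4 minus MPP3 averaged over both ages (left) and old minus young averaged over both populations (right). The filled square marks the 1 difference past the adjusted threshold, Hoxa9 at 0.349, and the dashed line is no difference.

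The comparison of old with young cells asked how each population ages. In MPP3, 0 of 36 Hox genes and 0 of 19155 genes (0%) passed the adjusted threshold, and a SAM-type statistic also called 0 Hox genes. At an unadjusted p under 0.05 there were 3 Hox genes, beside 8.19% of all genes, and all 3 lay toward the 5′ end of the Hoxa cluster with lower means in old cells. They were Hoxa9, by -0.257 ± 0.0586 (SE, adjusted p = 0.491), Hoxa10, by -0.285 ± 0.0762 (adjusted p = 0.511), and Hoxa11, by -0.0725 ± 0.0276 at values below the receptor limit. Arrays of the ages did not overlap in these and in Hoxc4 and Hoxc8, that is in 5 of 36 genes beside 14.2% of all genes.

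All old arrays were of set 1, so the sets can be compared in young cells alone, and in young MPP3 through a single array of set 1. That array, replicate 1, had 0.684 for Hoxa10 against 0.925 and 0.927 in set 2, and young MPP4 had 0.747 and 0.815 in set 1 against 0.879 to 0.988 in set 2. For Hoxa9 the values were 1.17 against 1.14 and 1.17 in young MPP3, and 1.46 and 1.47 against 1.32 to 1.36 in young MPP4. With array set as a term the Hoxa10 difference between old and young MPP3 was -0.124 in place of -0.285. For Hoxa9 within set 1 it was -0.266 ± 0.104 (adjusted p = 0.783). Hoxa5 differed by -0.271 ± 0.143 between old and young MPP3. Its young MPP3 arrays were at 0.710 in set 1 and 1.18 and 1.21 in set 2, while in young MPP4 the sets overlapped, with 0.780 and 1.22 in set 1 and 0.940 to 1.15 in set 2. The low young Hoxa5 arrays, replicate 1 of MPP3 and of MPP4, also had Xist above 1, with Eif2s3y at 0.0221 and 0.0261. Young MPP4 replicate 2, at 1.22 for Hoxa5, had Xist at 0.138. The part of the array sets, and of what Xist marks, in these differences was not tested.

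In MPP4, 0 Hox genes and 0 of all genes (0%) passed, and a SAM-type statistic called 0 Hox genes and 21 of all genes. Hoxa9 differed by -0.0278 ± 0.0389 between old and young MPP4 (95% interval -0.119 to 0.0634), with overlapping arrays. At an unadjusted p under 0.05 there were 5 Hox genes, beside 9.77% of all genes, and these were also the 5 of 36 whose arrays did not overlap, beside 7.29% of all genes. They were Hoxb2, higher in old cells, and Hoxb3, Hoxb9, Hoxc6 and Hoxc8, with lower means. Hoxb2, Hoxc6 and Hoxc8 were below the receptor limit in every group.

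Hoxb3, which acts with Hoxb4 in stem cell proliferation, was 1.11, 1.11, 1.18, 1.17 and 1.24 in young MPP4 and 1.10, 1.04 and 1.00 in old MPP4. The old arrays lay just below the young ones, and the difference was -0.115 ± 0.0375 (adjusted p = 0.441). In MPP3 the values were 1.26, 1.15 and 1.07 in young and 1.18, 1.11 and 1.25 in old cells, which overlapped. With array set as a term the MPP4 difference was -0.0619.

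Hoxb9 was 0.769, 0.879, 0.870, 0.833 and 1.03 in young MPP4 and 0.661, 0.699 and 0.656 in old MPP4, a difference of -0.204 ± 0.0541 (adjusted p = 0.365). The old MPP4 arrays were the lowest of all 14. In MPP3 it was 0.782, 0.742 and 0.809 in young and 0.760, 0.729 and 1.14 in old cells, where 1.14 was replicate 3, the array with the highest receptor limit.

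Whether age acted differently on the populations was tested as an interaction. For 36 Hox genes and for all genes, 0 (0%) passed the adjusted threshold, and 4 Hox genes had an unadjusted p under 0.05, beside 6.26% of all genes. The age difference in MPP4 minus that in MPP3 was 0.229 ± 0.0691 for Hoxa9 (adjusted p = 0.696), 0.415 ± 0.178 for Hoxa5 (adjusted p = 0.786), 0.109 ± 0.0314 for Hoxb2 (adjusted p = 0.667) and -0.303 ± 0.126 for Hoxb9 (adjusted p = 0.782). The Hoxa5 value was 0.117 within array set 1 alone, and that of Hoxb9 was -0.171 without old MPP3 replicate 3.

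Averaged over both populations, 0 Hox genes passed for age, beside 8 of all genes (0.0418%), and 7 had an unadjusted p under 0.05, beside 13.6% of all genes. With an array left out, 1 to 119 of all genes passed, the latter without young MPP3 replicate 1. Among them Hoxa9 differed by -0.142 ± 0.0346 (adjusted p = 0.140), Hoxa10 by -0.186 ± 0.0548 (adjusted p = 0.201) and Hoxd10 by 0.235 ± 0.100 (adjusted p = 0.336). Hoxa11, Hoxb2, Hoxc4 and Hoxc8, all below the receptor limit, were the others. The Hoxa10 difference was -0.0564 within array set 1 alone, and that of Hoxa9 was -0.194 with array set as a term and -0.0820 with array weights. The median of the 36 genes was -0.0217 and that of all genes 0.000576.

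Hoxd10, known for limb and motor neuron patterning, was 0.656, 0.433 and 0.432 in young MPP3, 0.789, 0.593 and 1.32 in old MPP3, 0.757, 0.562, 0.692, 0.471 and 0.558 in young MPP4, and 0.705, 0.648 and 0.696 in old MPP4. One array, old MPP3 replicate 3, stood far above the rest. Without it the average age difference was 0.129, and within array set 1 alone it was 0.135. Only in the old groups did Hoxd10 exceed the receptor limit on every array. It exceeded the limit on 11 arrays in all, young ones among them. In young MPP4 only replicate 4 lay below it, at 0.4706 against 0.4905. In young MPP3 replicate 1 exceeded it, at 0.6559 against 0.6499, and replicates 2 and 3 lay below it. The place of Hoxd10 among the genes above the limit and its age difference are not independent.

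Of the remaining genes above the limit, Hoxa4, Hoxa6, Hoxa7 and Hoxb4 overlapped between ages and between populations, and Hoxb7 and Hoxb1 were separated by small gaps between the old populations alone. Hoxa4 was 1.63, 1.06 and 0.912 in young MPP3, 1.26, 1.16 and 1.38 in old MPP3, 1.41, 1.40, 1.14, 1.07 and 0.978 in young MPP4, and 1.29, 1.15 and 1.17 in old MPP4. The young arrays of set 1 (1.63, 1.41 and 1.40) lay above those of set 2 (0.912 to 1.14). All 4 groups overlapped, and the differences were -0.0328 ± 0.113 between populations and 0.0345 ± 0.113 between ages.

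Hoxa7, a target of MLL fusion proteins in leukemia, was 1.11, 1.01 and 0.971 in young MPP3, 1.13, 0.927 and 1.13 in old MPP3, 1.29, 1.07, 0.993, 0.892 and 0.857 in young MPP4, and 1.31, 1.09 and 0.987 in old MPP4. All groups overlapped here too. Hoxa6 was 0.512, 0.712 and 0.726 in young MPP3, 0.571, 0.598 and 0.499 in old MPP3, 0.586, 0.694, 0.688, 0.772 and 0.752 in young MPP4, and 0.676, 0.631 and 0.567 in old MPP4. It exceeded the receptor limit on every MPP4 array and on 4 of the 6 MPP3 arrays, and its groups overlapped.

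Hoxb4, which expands stem cells when overexpressed, was 1.05, 0.958 and 0.920 in young MPP3, 1.10, 1.00 and 0.720 in old MPP3, 1.08, 1.04, 0.925, 0.930 and 0.959 in young MPP4, and 0.978, 1.08 and 1.02 in old MPP4. Only old MPP3 replicate 3 stood apart, at 0.720 against a receptor limit of 0.727 on that array. The average differences were 0.0475 ± 0.0557 between populations and 0.00330 ± 0.0557 between ages.

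Hoxb7 was 0.656, 0.837 and 0.838 in young MPP3, 0.680, 0.656 and 0.791 in old MPP3, 0.666, 0.589, 0.710, 0.860 and 0.773 in young MPP4, and 0.598, 0.637 and 0.553 in old MPP4. Old MPP4 was the lowest group and lay below old MPP3 by a gap of 0.0190. Hoxb1 was 1.25, 1.07 and 1.09 in young MPP3, 1.02, 1.01 and 1.22 in old MPP3, 1.10, 0.917, 1.08, 1.12 and 1.14 in young MPP4, and 0.992, 0.995 and 0.947 in old MPP4. Its old populations were separated by a gap of 0.0156, with MPP4 lower.

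Of the 10 TALE-class cofactors measured (of 11), 6 to 8 were above the receptor limit on each array. None of the 10 passed the adjusted threshold in any of the 7 comparisons. Meis1, the partner of Hoxa9 in stem and leukemic cells, was 3.02, 3.11 and 3.14 in young MPP3, 2.98, 1.82 and 3.02 in old MPP3, 3.10, 2.93, 3.16, 3.18 and 3.25 in young MPP4, and 2.91, 3.07 and 2.77 in old MPP4. It was high on all arrays but old MPP3 replicate 2, and its average age difference was -0.346 ± 0.166 (adjusted p = 0.392). Pbx3, a further partner in leukemia, was 0.534 to 0.609 in young and 0.581 to 0.932 in old MPP3, and 0.503 to 0.713 in young and 0.745 to 0.880 in old MPP4, with a difference of 0.189 ± 0.0543 (adjusted p = 0.198). For age, Meis2 and Pknox1 differed by -0.0384 and -0.0810. For population, Pbx2 and Tgif1 were higher in MPP4 by 0.122 and 0.225, and Pbx4 and Meis3 had differences of -0.162 and -0.0908.

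**Figure D5:**
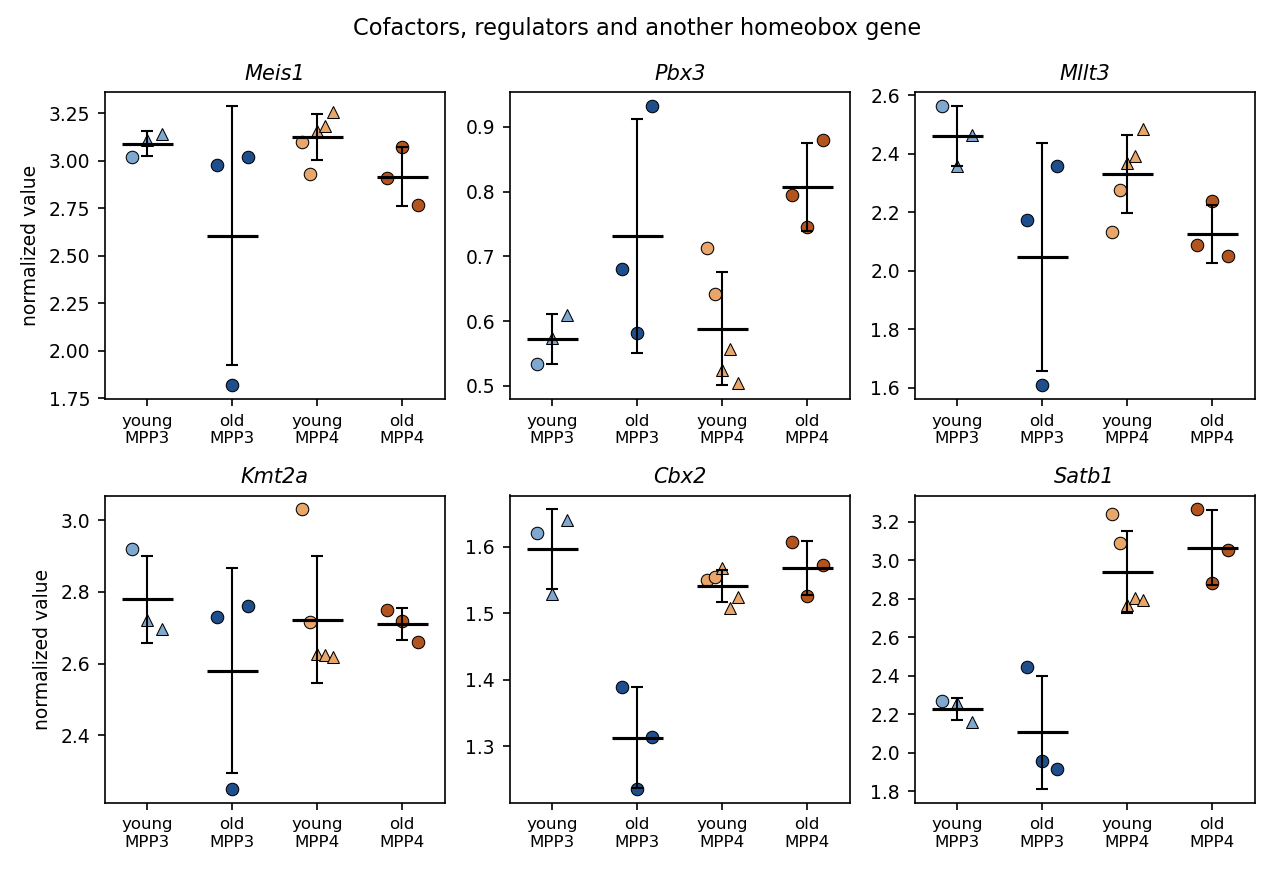
Normalized value by group of 6 genes that act with, on or beside Hox genes, with 1 point per array, the group mean (bar) and SD (whisker), circles for array set 1 and triangles for set 2. Each panel has its own axis, which does not start at 0. Satb1 lies above 2.7 on every MPP4 array and below 2.5 on every MPP3 array, and Cbx2 is lowest in old MPP3.

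Of the MLL, DOT1L and Cdx activators, 18 of 21 were measured and none passed in any comparison. Over both populations 12 of 18 had a lower mean in old cells, with a median difference of -0.0763 beside 0.000576 for all genes, and 4 had an unadjusted p under 0.05, beside 13.6% of all genes. These were Cdx1, a caudal-type activator of Hox genes (-0.211 ± 0.0591), Mllt3, a reader of acetylated histones and MLL fusion partner (-0.311 ± 0.106), Cdx2 (-0.0860 ± 0.0305) and Kdm6a, an H3K27 demethylase (-0.239 ± 0.0862), with adjusted p between 0.184 and 0.271. Between populations Wdr5 and Kat7 were 0.187 and 0.126 higher in MPP4, and Brpf1 and Aff1 differed by -0.145 and -0.154. Kmt2a, which encodes MLL1 and is plotted as the namesake of the list after its values were seen, differed by 0.0365 ± 0.0927 between populations and -0.106 ± 0.0927 between ages.

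Of the Polycomb repressors, 15 of 16 were measured, at least 14 were above the receptor limit on every array, and none passed. Cbx2, a subunit that reads the H3K27 mark, was 1.62, 1.53 and 1.64 in young MPP3, 1.39, 1.24 and 1.31 in old MPP3, 1.55, 1.55, 1.57, 1.51 and 1.52 in young MPP4, and 1.61, 1.53 and 1.57 in old MPP4. The 3 old MPP3 arrays lay below all others. Its average differences were -0.128 ± 0.0271 for age (adjusted p = 0.134) and 0.100 ± 0.0271 for MPP4 against MPP3 (adjusted p = 0.123). For age, Ring1 and Phc1 differed by -0.154 and -0.131 and Suz12 by 0.136, and between populations Bmi1, Eed and Ring1 were higher in MPP4 by 0.193, 0.0604 and 0.0695.

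Among homeobox genes outside the clusters, 14 of 17 were measured and 1 passed in 1 comparison. Satb1, a chromatin organizer of lymphoid cells, was 2.27, 2.26 and 2.16 in young MPP3, 2.44, 1.96 and 1.92 in old MPP3, 3.24, 3.09, 2.77, 2.81 and 2.79 in young MPP4, and 3.26, 2.88 and 3.06 in old MPP4. It was higher in MPP4 on every array, by 0.836 ± 0.108 on average (adjusted p = 0.00547). Hhex, Pou2f2 and Zeb1 were higher in MPP4 by 0.280, 0.148 and 0.214 without passing. For age, Zeb1, Zeb2, Evx1 and Evx2, the last 2 lying beside the Hoxa and Hoxd clusters, differed by -0.158, 0.105, 0.0535 and -0.0676. Of 15 noncoding transcripts and microRNAs within the clusters 2 were measured, Hottip and Hoxd3os1. Neither was above the receptor limit on any array, and they differed by 0.0348 and -0.0475 between populations and by -0.0303 and 0.000978 between ages.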

How the data were processed

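RNA of 20000 sorted cells per sample was amplified with a NuGEN Pico kit and hybridized to 1 array per sample. The authors processed the arrays with RMA and deposited a score per probe set, quantile-mapped on each array onto an exponential reference. The methods describe independent biological replicates. Precision is limited by how few arrays there were. The deposited values were used unchanged. Of 22115 probe sets, 19980 were listed in the platform annotation. Probe sets with several symbols (744) were left out, and a gene with several probe sets kept the brightest by mean over the 14 arrays, giving 19155 genes.

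Groups came from the sample titles. Models were fitted with limma 3.58.1 (lmFit, eBayes) in R 4.3.3, two-sided, with p-values adjusted by Benjamini-Hochberg across the 19155 genes at 0.05, and the procedure was tested on simulated data. The 4 comparisons of 2 groups used their own arrays, and the averages and the interaction used all 4 groups. Alternatives were a SAM-type statistic (the study's ranking method), a replicate block, trended and robust variances, normal scores, weighting of arrays, 1 joint fit of the 4 groups, dim genes left out, all probe sets, array set as a term, arrays with Xist left out and each replicate left out. Coordinates and promoter windows came from RefSeq (GRCm38.p6). Tables and figures were made with Python 3.11.15.

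The members and lists were chosen with earlier results of these data known. All Hox genes above the receptor limit in a group were named, and of each list that does not mark a cell type the 4 genes with the largest moderated t for the average age and the average population difference. Marker lists are given as means per array.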

Additional observations from a re-analysis of the deposited data

Results flagged for a closer look

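In the 36 sets of 5 young MPP4 values, 1 per Hox gene, the highest or lowest array was checked for standing apart by Dixon's criterion, and 3 were picked out, where chance alone picks out about 1 set in 20. Hoxb1 was lowest on young MPP4 replicate 2, at 0.917 against 1.08 to 1.14 on the other 4 arrays. Hoxd8 was lowest on young MPP4 replicate 1, at 0.140 against 0.163 to 0.167, and Hoxd9 was highest on young MPP4 replicate 2, at 0.534 against 0.385 to 0.400 on the others. Both Hoxd genes were below the receptor limit in every group.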

How the results depend on the processing

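The 18 named differences are of genes above the receptor limit with an unadjusted limma p under 0.05 on these same arrays. A kept direction was therefore likely in advance. Only the average population difference of Hoxa9 had passed the adjusted threshold, so for the others keeping a side meant still not passing. Of 358 alternative values for the 18 named differences, 0 changed direction and 348 kept their side of the threshold. Another 9 passed it in place of the reported value, and 1 no longer passed. The latter was the average population difference of Hoxa9 within array set 1 alone, an alternative chosen after seeing the data, where 0 Hox genes passed and the adjusted p was 0.0981 with 9 arrays in place of 14. Over the other alternatives its adjusted p ran from 8.79e-05 to 0.0366, the latter without the arrays with Xist. With array weights, 14 Hox genes passed for the average age difference (Hoxa6, Hoxa9, Hoxa10, Hoxa11, Hoxa13, Hoxb1, Hoxb2, Hoxb6, Hoxb7, Hoxc4, Hoxc8, Hoxd8, Hoxd10 and Hoxd11) where 0 did without weights, but 4384 of all genes passed too, in place of 8. Weights also brought 1 Hox gene for age in MPP4 (Hoxb2, beside 304 of all genes), 2 for population in young mice (Hoxa9 and Hoxb2, beside 1808) and 2 for the interaction (Hoxa5 and Hoxb2, beside 574). Array set as a term gave 1 for population in young mice (Hoxa9, beside 271). In old mice a SAM-type statistic gave 2 (Hoxa5 and Hoxa9, beside 142) and 1 fit of all groups gave 1 (Hoxa9, beside 27). The cause of these changes was not tested. With a replicate left out, the count of Hox genes was 1 to 2 for the average population difference, with Hoxa3 added without old MPP3 replicate 1, and 0 in each case for the other 6 comparisons. The count above the receptor limit was 12 to 13 with a replicate left out and 6 with the 99th percentile. Correlations of deviations of same-numbered arrays ran from -0.199 to 0.407, the highest between young MPP3 replicate 1 and young MPP4 replicate 1. Those 2 arrays had Xist above 1 with Eif2s3y at 0.0221 and 0.0261. Arrays of different numbers were not correlated for comparison, so whether replicate numbers pair the samples cannot be decided from these values. With a replicate block Hoxa9 differed by 0.366 between populations (adjusted p = 0.00992), and the count of all genes was 29 in place of 188 there, 0 in place of 25 for population in young mice and 1 in place of 8 for the average age difference. The block changed no call of a named Hox gene. All old arrays were in set 1, so old mice gave no value with array set as a term.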
